A study of Homo sapiens with 6 samples.

Results

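The genes described here are the human collagen chain genes, taken as every row of the deposited tables whose symbol was COL, a number, A and a number. This rule found 41 genes among the 17631 listed, and 17 of them reached 1 TPM (transcripts scaled so that each library sums to the same total) or more in at least 3 libraries, the filter that 12582 genes passed. COL5A3, COL6A5 and COL23A1 had no row and were not analysed here. The RNA came from MDA-MB-231, an established line of human triple-negative breast cancer cells, although the labels also name breast cancer tissue as the source. One group of 3 libraries came from cells given vehicle, whose composition the labels do not state. The other 3 came from cells given 30 µM PDBAG1 for 24 h, a peptide of the metabolic enzyme GPD1 joined to a cell-penetrating sequence. No label says whether the libraries of a group were separate cultures, so p-values measure only the spread between these libraries, which may be technical.

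Collagens are matrix proteins of 3 chains wound into a triple helix, in which a glycine opens each triplet of residues. Fibrillar collagens such as types I, III and V form the ropes of connective tissue, type IV forms the sheet of the basement membrane, and type VII anchors that sheet to the tissue beneath. Type VI builds beaded filaments, FACIT collagens coat the surface of fibrils, type VIII forms a short-chain network, and types XIII and XVII stay in the cell membrane. Fibroblasts make most fibrillar collagen, whereas carcinoma cells are known to make basement membrane, membrane-bound and some filament types themselves.

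The repeat was read from the coding sequences of the Ensembl canonical transcripts (GENCODE v44), because it is what all members share beyond their names. Runs of at least 5 such triplets took 8.13% of the codons in COL12A1 and 85.1% in COL9A3, with a median of 58.8% over the 17 genes. COL7A1 and COL8A1 are shown because they had the largest rise and the only called fall among the collagens, with the glycine codon that opens each triplet in capitals. Both are the first 10 triplets of the gene's longest run, 5′ to 3′ on the coding strand.
COL7A1: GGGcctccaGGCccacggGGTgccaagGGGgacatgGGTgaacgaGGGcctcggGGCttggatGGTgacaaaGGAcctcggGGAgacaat
COL8A1: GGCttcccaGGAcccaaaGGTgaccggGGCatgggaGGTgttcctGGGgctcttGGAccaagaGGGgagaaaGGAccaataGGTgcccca
The first begins at codon 2527 and lies in exons 102 and 103 of COL7A1 (chr3:48569393-48569627, minus strand, GRCh38), and the second begins at codon 354 in exon 4 of COL8A1 (chr3:99794961-99795050, plus strand). The longest unbroken run was 75 triplets in COL7A1, 60 in COL8A1 and 338 in the fibrillar COL1A1.

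Library checks bear on all values below. TPM carries no record of sequencing depth, so precision rests on the 3 libraries of a group, and with 3 against 3 an exact two-sided permutation test of 1 gene cannot go below 0.1. The model fitted over all genes (limma on log2(TPM + 1)) was therefore used, with Benjamini-Hochberg adjustment over the 12582 genes. The line's markers VIM, CD44, AXL and CAV1 ranged from 309.1 to 5942 TPM over all libraries, PGR and CDH1 were under 1 TPM, and ESR1 and EPCAM were between 1.96 and 5.78 TPM. The summed level of 6 fibroblast markers was 18.9 to 20.3 TPM with vehicle and 15.5 to 18.2 with PDBAG1, most of it THY1. Of the 2 that were tested, THY1 was called lower, at 17.8 ± 0.511 and 14.02 ± 1.49 TPM (limma adjusted p = 0.00484), and PDGFRB was called higher, at 1.78 ± 0.204 and 2.43 ± 0.0666 TPM (limma adjusted p = 0.0355; vehicle first, mean ± SD, n = 3 each). LUM, PDGFRA and FAP were at or under 0.05 TPM in every library, and DCN had no row. Of the endothelial and blood cell markers PECAM1 was called higher, at 3.94 ± 0.152 TPM in vehicle cells and 8.64 ± 0.680 TPM in PDBAG1 cells (mean ± SD, n = 3 each), while CDH5 was at 0.25 to 0.39 TPM with vehicle, against 0.41 to 0.46 TPM with PDBAG1, and PTPRC was at 0.86 to 1.41 TPM with overlapping groups. The part of these marker genes in the collagen results was not tested. In bulk RNA, fewer cells that make a transcript and less of it per cell cannot be told apart.

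MDA-MB-231 cells expressed few collagens well. The summed TPM of the 41 genes was 284 to 312 in the vehicle libraries and 332 to 358 in the PDBAG1 libraries, with means of 299 ± 14.1 and 341 ± 14.7 (SD, n = 3 each). The type XIII gene COL13A1, whose product spans the cell membrane, alone gave 40.0% ± 0.794 of that sum with vehicle, against 37.2% ± 0.657 with PDBAG1 (SD, n = 3 each). COL6A1 of the beaded filaments followed with 12.2% ± 0.142 with vehicle, then COL18A1, a basement membrane zone collagen that gives rise to endostatin, with 8.17% ± 0.170 and COL4A2 with 6.93% ± 0.0430. The 10 fibrillar genes together gave 6.0% ± 0.431 and the 6 type IV genes 10.0% ± 0.142. The low share of fibrillar genes and the lead of a membrane-bound type held in all 6 libraries.

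**Figure D1:**
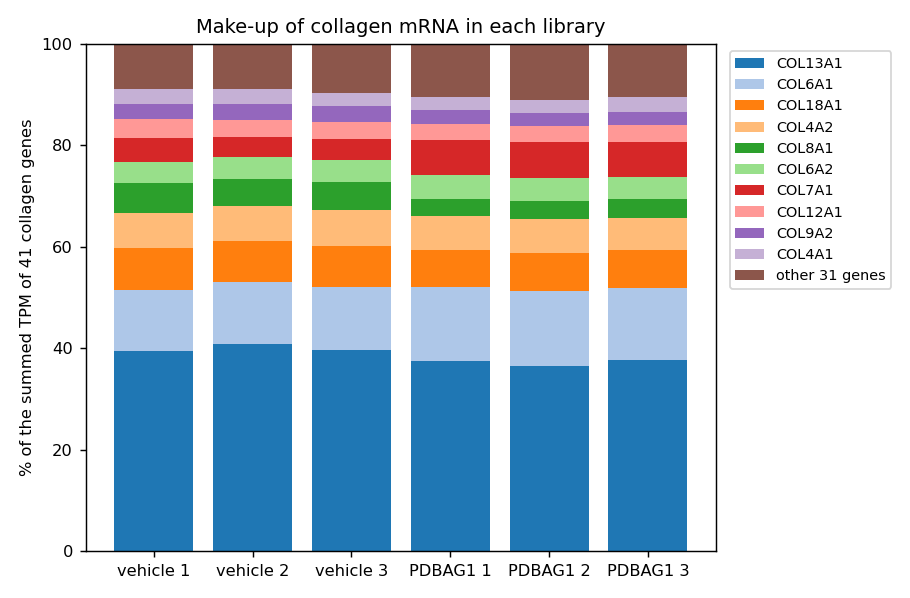
Share of the summed TPM of 41 collagen genes in each library (y axis, percent; 1 stacked bar per library, 3 vehicle and 3 PDBAG1). COL13A1 fills 36.4% to 40.9% of every bar, COL7A1 takes a larger share in the PDBAG1 bars and COL8A1 a smaller one.

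Under PDBAG1, limma placed 7 of the 17 tested collagens higher and 1 lower past an adjusted p of 0.05, and 9 did not pass. Of all genes tested, 37.6% passed this threshold (21.7% higher and 15.9% lower), so that 8 of 17 is not far from the background. COL6A3 passed the expression filter only through its PDBAG1 libraries, and among the other 16 collagens 6 were higher and 1 was lower. COL9A3 and COL16A1, neither of them called, had 1 and 2 vehicle libraries at 1 TPM or more and also needed PDBAG1 libraries to pass. With a fold change of at least 1.5 as well, 1 collagen passed, COL7A1, against 3.34% of all genes. The study used the same cut-offs after normalising to FPKM. Here the fold is that of the fit on log2(TPM + 1), which understates the change of low genes, so the measures are unlike. The median log2 fold change was 0.19 over the 17 collagens, 0.15 over the 16 without COL6A3 and 0.03 over all genes. The PDBAG1 and vehicle values did not overlap in 11 of the 17 collagens, 10 higher and 1 lower, compared with 47.4% of all genes tested (27.2% higher and 20.2% lower). The 10 higher include COL6A3 and COL9A3, which the filter kept through their PDBAG1 values, so this count is not free of the filter.

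**Figure D2:**
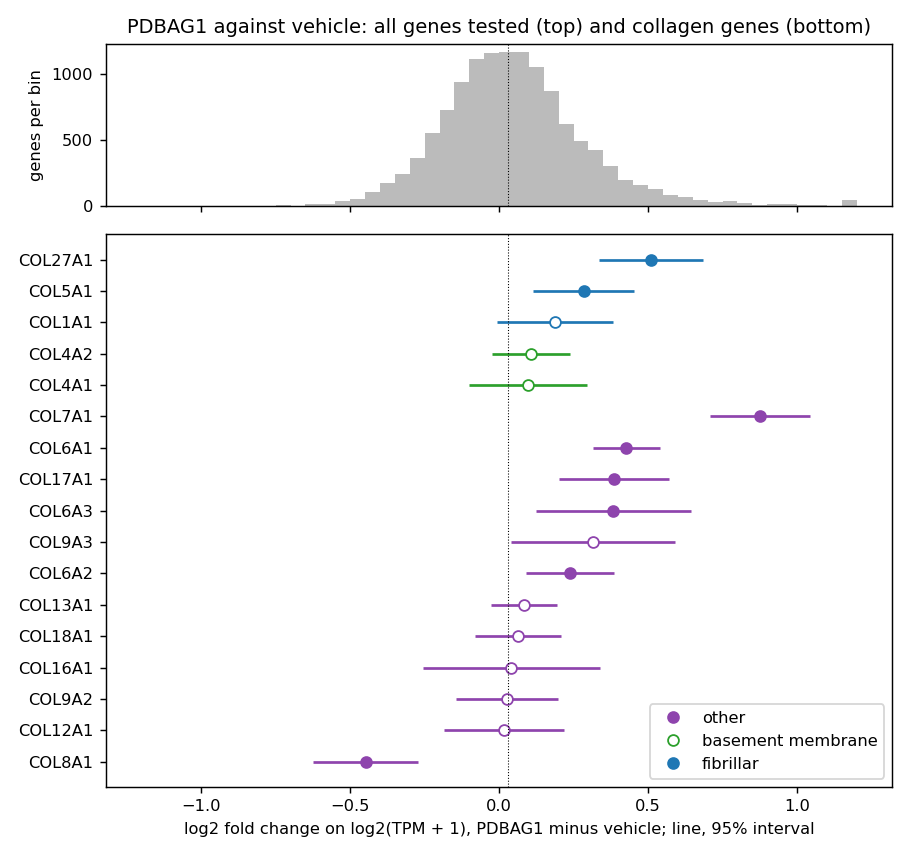
Top, number of genes per 0.05-wide bin of log2 fold change for all 12582 genes tested (values beyond 1.2 placed in the end bins); bottom, log2 fold change of each tested collagen on the log2(TPM + 1) scale with its 95% interval, PDBAG1 minus vehicle, coloured by class. Filled points passed a limma adjusted p of 0.05, the dotted line is the median of all genes (0.03), and COL7A1 at 0.88 and COL8A1 at -0.45 lie farthest from it.

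COL7A1 (ENSG00000114270, chromosome 3, 48564073 to 48595329, minus strand, GRCh38, GENCODE v44) encodes the chain of the anchoring fibrils that fasten epithelia to the tissue below. Its TPM was 14.3, 11.7 and 11.96 in the vehicle libraries and 23.3, 24.1 and 24.6 in the PDBAG1 libraries. Every PDBAG1 library was well above every vehicle library. Group means were 12.7 ± 1.44 TPM with vehicle and 24.0 ± 0.661 TPM with PDBAG1 (mean ± SD, n = 3 each). On the log2 scale COL7A1 rose by 0.88 with a standard error of 0.08 (limma adjusted p = 1.60e-06). Of the 12582 genes tested, 113 had a higher log2 fold change. The values are per gene, so this difference cannot be placed on the coding run printed above.

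The 250 bases before the COL7A1 start in RefSeq (GRCh38.p14, chr3:48595330-48595579, minus strand) are printed because this gene changed most, with each GC box in capitals (GGGCGG, or CCGCCC where it lies on the other strand).
COL7A1: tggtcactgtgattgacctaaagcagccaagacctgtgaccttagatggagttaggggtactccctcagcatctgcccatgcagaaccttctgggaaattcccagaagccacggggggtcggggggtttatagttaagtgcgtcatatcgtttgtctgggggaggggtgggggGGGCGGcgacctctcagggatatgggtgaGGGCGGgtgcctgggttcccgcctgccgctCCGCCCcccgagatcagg
It holds 3 GC boxes, the letters to which SP1 family factors are known to bind, and 60.8% of its bases are G or C.

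The other called rises were found in the beaded filament, fibrillar and membrane-bound classes. COL6A1 (chromosome 21, 45981770 to 46005050) encodes the first chain of type VI and stood at 37.9, 36.6 and 35.2 TPM with vehicle, against 48.8, 49.0 and 50.5 TPM with PDBAG1. The groups were far apart, and COL6A1 rose by 0.43 on the log2 scale, with a standard error of 0.05 (limma adjusted p = 2.85e-05). COL6A2, which lies 93.1 kb downstream on the same strand and encodes the second chain, was also called higher, at 12.8 ± 0.596 TPM in vehicle cells and 15.3 ± 0.327 TPM in PDBAG1 cells (mean ± SD, n = 3 each). Its rise was 0.24 on the log2 scale (limma adjusted p = 0.0148). COL6A2 lost its call with the replicate number as a block (limma adjusted p = 0.0504) and without vehicle replicate 3, where the log2 fold change was 0.20 (limma adjusted p = 0.0818). COL6A3, the largest chain, was at 0.52, 0.63 and 0.77 TPM with vehicle, against 1.08, 1.22 and 1.11 TPM with PDBAG1. These are low levels that meet the filter in 1 group alone, and the call (log2 fold change 0.38, limma adjusted p = 0.0228) was lost when vehicle replicate 1, vehicle replicate 2 or PDBAG1 replicate 2 was left out, with log2 fold changes of 0.33, 0.38 and 0.36. It was also lost under quantile normalization, at 0.30 (limma adjusted p = 0.0697).

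The type VI chains did not change in equal measure. The ratio of COL6A1 to COL6A2, which a single scaling factor per library cannot alter, was 2.86, 2.80 and 2.90 with vehicle and 3.15, 3.29 and 3.28 with PDBAG1. Its mean went from 2.85 ± 0.0506 to 3.24 ± 0.0791 (SD, n = 3 each), with no overlap. It was not tested, since an exact permutation test of 3 against 3 libraries cannot go below 0.1. COL6A3, at 0.52 to 1.22 TPM, was far under COL6A2, at 12.1 to 15.5 TPM, on a scale that already accounts for transcript length. The remaining type VI gene with a row, COL6A6, was at or under 0.07 TPM throughout.

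Of the 10 fibrillar genes, 3 passed the expression filter and 2 of them were called higher, where 21.7% of all genes tested were. The median log2 fold change was 0.28 over these 3 genes. It was 0.10 over the 2 tested basement membrane genes, 0.16 over the 12 tested genes of other types and 0.03 over all genes. With 1 TPM required in every library, COL6A3, COL9A3 and COL16A1 drop out. The median of other types was then 0.084 over 9 genes, under the 0.10 of the basement membrane genes, so the order of these classes depends on the filter. COL27A1 (chromosome 9, 114155537 to 114312511), a fibrillar collagen of cartilage with a shorter helix than types I to V, was at 6.15, 6.06 and 6.6 TPM with vehicle, against 9.15, 9.02 and 9.87 TPM with PDBAG1. The groups were clearly separate, and COL27A1 rose by 0.51 on the log2 scale, with a standard error of 0.08 (limma adjusted p = 0.000262). COL5A1 (chromosome 9, 134641803 to 134844843), whose chain starts the assembly of type I fibrils, was called higher by 0.28 on the log2 scale (limma adjusted p = 0.0122), at 6.84 ± 0.208 TPM in vehicle cells and 8.55 ± 0.384 TPM in PDBAG1 cells (mean ± SD, n = 3 each). COL1A1, the main chain of type I, was at 3.95, 4.01 and 3.89 TPM with vehicle, against 4.33, 4.92 and 4.68 TPM with PDBAG1. Although these groups did not overlap, the log2 fold change of 0.19 had a 95% interval of -0.01 to 0.38 and did not pass (limma adjusted p = 0.121).

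The partners of these chains were nearly silent. COL1A2, whose chain joins that of COL1A1 in the usual type I trimer, was listed at 0, 0 and 0.02 TPM with vehicle and at 0.06, 0.08 and 0.09 TPM with PDBAG1. COL5A2, the partner of COL5A1, was at 0.17 to 0.39 TPM with vehicle, against 0.12 to 0.25 TPM with PDBAG1, and COL3A1 was at or under 0.07 TPM. Each library thus held COL1A1 and COL5A1 well above the gene of the chain with which each usually assembles. The other fibrillar genes, COL2A1, COL11A1, COL11A2 and COL24A1, stayed at or under 0.60 TPM.

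The basement membrane class showed no called change. Of the 6 type IV genes, COL4A1 and COL4A2 were tested, and their log2 fold changes were 0.10 (95% interval -0.10 to 0.29, limma adjusted p = 0.434) and 0.11 (95% interval -0.02 to 0.24, limma adjusted p = 0.188). COL4A1 was at 9.23, 8.78 and 7.62 TPM with vehicle, against 8.62, 8.80 and 10.2 TPM with PDBAG1, and these groups overlapped. COL4A2 was at 21.5, 20.8 and 19.8 TPM with vehicle, against 22.3, 22.2 and 22.6 TPM with PDBAG1, a small gap in 1 direction. The ratio of COL4A1 to COL4A2 was 0.412 ± 0.0240 in vehicle cells and 0.411 ± 0.0348 in PDBAG1 cells (SD, n = 3 each), so the difference was far smaller than the spread between libraries. COL4A4, a chain of the kidney glomerulus, was under the filter at 0.44 to 0.73 TPM with vehicle, against 0.80 to 0.93 TPM with PDBAG1, and COL4A3, COL4A5 and COL4A6 stayed at or under 0.13 TPM.

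COL4A1 and COL4A2 point away from each other on chromosome 13, and their RefSeq starts enclose the following 126 bases (GRCh38.p14, chr13:110307158-110307283, plus strand). They are shown because 1 stretch serves both genes, whose log2 fold changes lay close together, and CCAAT is in capitals.
COL4A1-COL4A2: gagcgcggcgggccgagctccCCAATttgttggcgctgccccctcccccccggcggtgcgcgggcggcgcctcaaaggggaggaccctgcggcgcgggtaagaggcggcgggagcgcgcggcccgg
In this strip 80.2% of the bases are G or C. In GENCODE v44 the spans of both genes overlap on opposite strands, and the sources used here do not say whether reads were counted by strand.

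Letters of known promoter elements were searched on both strands in RefSeq windows of 250 bases before to 50 after each start, which 13 of the 17 tested collagens had. COL1A1, COL6A1, COL8A1 and COL9A3 had no window. A collagen was counted if any of its windows matched, whereas the share over all genes is per window. That share is also not limited to the genes tested, so the measures are unlike. The GC box GGGCGG was in 10 of the 13, compared with 45.0% of the 35116 windows of all genes, and TATAAA was in 5 of 13, compared with 11.5%. CCAAT was in 3 of 13 (34.6% of all windows), 2 of which are the overlapping windows of COL4A1 and COL4A2. One core of the hypoxia response element, GCGTG, was in 6 of the 13, compared with 36.5% of all windows. The other core, ACGTG, whose letters on both strands overlap where a C precedes them, was in COL5A1 and COL12A1, compared with 21.4% of all windows. The AP-1 letters TGANTCA were in 0 of 13, compared with 7.71% of all windows. A match or its absence describes these letters in this window and no binding.

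The remaining collagens held the only called fall. COL8A1 (ENSG00000144810, chromosome 3, 99638475 to 99799226, plus strand), a short-chain collagen of vessel walls and of the membrane beneath the corneal endothelium, was at 18.1, 16.5 and 15.9 TPM with vehicle, against 11.2, 11.6 and 13.5 TPM with PDBAG1. The highest PDBAG1 library lay below the lowest vehicle library. Group means were 16.8 ± 1.11 TPM with vehicle and 12.1 ± 1.22 TPM with PDBAG1 (mean ± SD, n = 3 each). COL8A1 had a log2 fold change of -0.45 with a standard error of 0.08 (limma adjusted p = 0.000780). Of all genes tested, 185 had a lower log2 fold change. Its paralogue COL8A2 and the related COL10A1 stayed at or under 0.38 TPM.

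Among membrane-bound types, COL17A1 (chromosome 10, 104031286 to 104085880), the hemidesmosome collagen of basal epithelial cells, rose from 5.09, 5.06 and 4.65 TPM to 6.42, 6.83 and 6.99 TPM. It rose by 0.38 on the log2 scale, with a standard error of 0.09 (limma adjusted p = 0.00310) and no overlap between groups. The far more abundant COL13A1, a collagen of cell adhesion sites, was at 123, 123 and 113 TPM with vehicle, against 124, 121 and 135 TPM with PDBAG1. Its groups overlapped, and the log2 fold change of 0.08 had a 95% interval of -0.03 to 0.19. COL25A1, a membrane collagen of neurons, was at or under 0.08 TPM.

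The FACIT and multiplexin classes showed no called change. The FACIT genes COL9A2 and COL12A1 had log2 fold changes of 0.03 (95% interval -0.15 to 0.20) and 0.02 (95% interval -0.19 to 0.22), at 8.46 to 9.49 and 9.68 to 12.1 TPM over all libraries. COL16A1 was near the filter at 0.79 to 1.51 TPM, with a log2 fold change of 0.04 (95% interval -0.26 to 0.34). COL9A3 was at 0.84, 1.02 and 0.58 TPM with vehicle, against 1.22, 1.37 and 1.15 TPM with PDBAG1 (log2 fold change 0.32, limma adjusted p = 0.0674). Without vehicle replicate 2 it passed (limma adjusted p = 0.0472). Only 1 of its vehicle libraries reached 1 TPM, so it met the filter through its PDBAG1 libraries. The span of COL9A3 also overlaps that of TCFL5, a gene on the opposite strand at 48.1 to 56.1 TPM. Without strand, reads from a stretch that both transcripts share could not be told apart. The extent of such a stretch was not measured, and its part in the COL9A3 values was not tested. The multiplexin COL18A1 was at 23.0 to 26.1 TPM with vehicle, against 24.1 to 27.1 TPM with PDBAG1 (log2 fold change 0.06, 95% interval -0.08 to 0.21, limma adjusted p = 0.491).

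**Figure D3:**
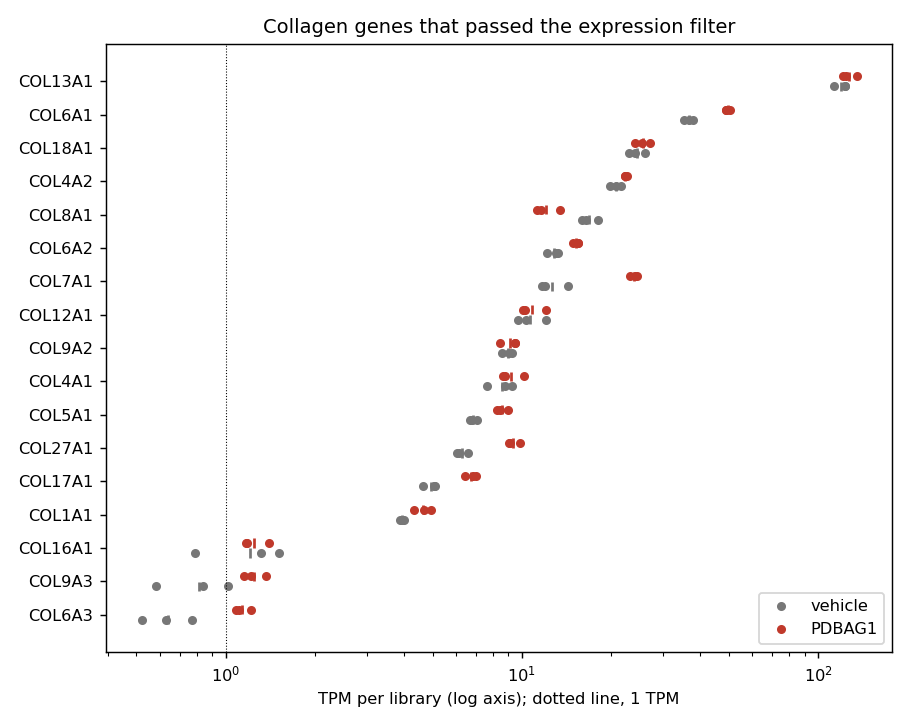
TPM of the 17 tested collagens in each library (x axis, log scale; 3 points per group, vertical tick at the group mean; grey, vehicle; red, PDBAG1). COL13A1 at 113 to 135 TPM stands above all others, and the groups are apart for COL7A1, COL6A1, COL27A1 and COL8A1.

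The other 24 collagens stayed under 1 TPM in all 6 libraries, with a highest value of 0.94 TPM, and 15 of them stayed under 0.1 TPM. In 13 of the 24 at least 1 library was listed at 0, and COL9A1, COL14A1, COL19A1, COL20A1, COL21A1, COL22A1, COL26A1 and COL28A1 never exceeded 0.14 TPM. COL15A1, the second multiplexin, was at 0.30, 0.38 and 0.33 TPM with vehicle, against 0.56, 0.94 and 0.69 TPM with PDBAG1. In the fit without an expression filter it was the only one of the 24 to pass (log2 fold change 0.37, limma adjusted p = 0.0161), where 23.4% of 17631 genes passed. In 5 of the 24 (COL1A2, COL2A1, COL4A4, COL4A5 and COL15A1) the PDBAG1 values all exceeded the vehicle values and in 0 they were all lower, compared with 8.0% and 2.55% of the genes under the filter. At these levels a TPM step of 0.01 is a large part of the value, and no fold is given.

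The collagen rises were smaller once trends with transcript features were taken out. The tested collagens have long transcripts rich in G and C, with a median length of 5612 bases and a median of 61.5% G or C, against 3280 bases and 48.2% over all genes tested. Removing trends of each library's values with length and GC content, available for all 17, moved the collagen median log2 fold change from 0.19 to 0.04, while that of all genes remained 0.03. Under this setting 4 collagens were higher and 1 was lower. COL7A1 kept its call at 0.67 (limma adjusted p = 5.59e-06), COL8A1 at -0.47, COL27A1 at 0.34, COL6A1 at 0.30 and COL17A1 at 0.29, whereas COL5A1 (0.12), COL6A2 (0.11) and COL6A3 (0.27) lost theirs. The part of these transcript features in the deposited values was not tested.

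**Figure D4:**
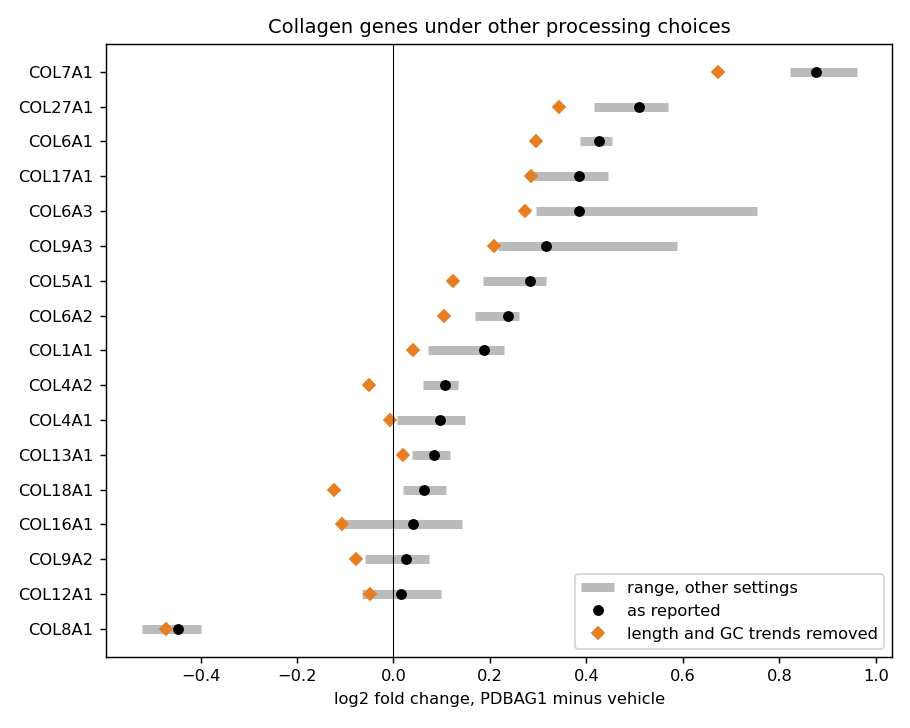
Log2 fold change of each tested collagen as reported (black), with length and GC trends removed (orange) and over all other settings (grey bar, lowest to highest). Orange points lie to the left of black ones for all 17 genes. COL7A1, COL27A1, COL6A1 and COL17A1 stay above 0 and COL8A1 below it. COL1A1, COL5A1, COL6A2, COL6A3, COL9A3 and COL13A1 also stay above 0 in every setting.

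The genes that make, bind and break down collagen were described from 5 lists of 75 genes in all. The lists were chosen with earlier results of these data known, so the shares of all genes beside them are no independent test. Of 53 tested, limma placed 29 higher and 2 lower past an adjusted p of 0.05, and 8 rose at least 1.5-fold, against 21.7%, 15.9% and 2.86% of all genes. In the list of chain modification and folding 9 of 19 rose and 1 fell. The prolyl 4-hydroxylase subunits P4HA1 and P4HA2, which stabilise the helix, were called higher, at 47.8 ± 1.35 and 19.9 ± 0.549 TPM with vehicle, against 102 ± 2.86 and 38.9 ± 1.43 TPM with PDBAG1 (mean ± SD, n = 3 each). The lysyl hydroxylases PLOD1 and PLOD2, which prepare cross-links, had log2 fold changes of 0.57 and 0.48, while P3H2, a prolyl 3-hydroxylase that acts on basement membrane collagen, fell by 0.45 on the log2 scale. SERPINH1, the collagen chaperone HSP47, did not pass, at 115 ± 2.39 and 111 ± 5.66 TPM (SD, n = 3 each). In propeptide processing and cross-linking 5 of 9 rose and 1 fell. The lysyl oxidase LOX went up from a mean of 36.2 ± 1.09 TPM with vehicle to 75.4 ± 3.39 TPM with PDBAG1 (SD, n = 3 each), LOXL2 and LOXL4 had log2 fold changes of 0.24 and 0.28, and LOXL3 fell by 0.42. BMP1, which trims the C-propeptide, and PXDN, the peroxidasin that cross-links type IV, had log2 fold changes of 0.37 and 0.33.

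Collagen receptors rose in 6 of 10 tested genes, and none fell. The counts of this and the next lists stand beside 21.7% of all genes tested called higher and 15.9% called lower. ITGA2, the integrin α2 chain, went up from a mean of 80.04 ± 8.05 TPM with vehicle to 157 ± 13.7 TPM with PDBAG1 (SD, n = 3 each), and the type III collagen receptor ADGRG1 went up from a mean of 24.6 ± 1.2 TPM with vehicle to 44.1 ± 2.22 TPM with PDBAG1 (SD, n = 3 each). DDR1, ITGA1 and MRC2 had log2 fold changes of 0.44, 0.40 and 0.37. Of the genes for collagen breakdown and its inhibitors, 5 of 9 rose and none fell. The membrane collagenase MMP14 went up from a mean of 134 ± 5.08 TPM with vehicle to 260 ± 3.02 TPM with PDBAG1 (SD, n = 3 each), and the interstitial collagenase MMP1 went from a mean of 2568 ± 50.5 TPM to 3420 ± 105 TPM (SD, n = 3 each), a level above that of all collagens together. CTSK, TIMP2 and TIMP1 had log2 fold changes of 0.63, 0.58 and 0.17. Among matrix partners 4 of 6 rose and none fell: fibronectin FN1 with a log2 fold change of 0.81, tenascin TNC with 0.54, agrin AGRN with 0.29 and the laminin chain LAMC1 with 0.17, the last with overlapping groups. The fibril-binding proteoglycans BGN, FMOD and LUM were all under 0.7 TPM.

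**Figure D5:**
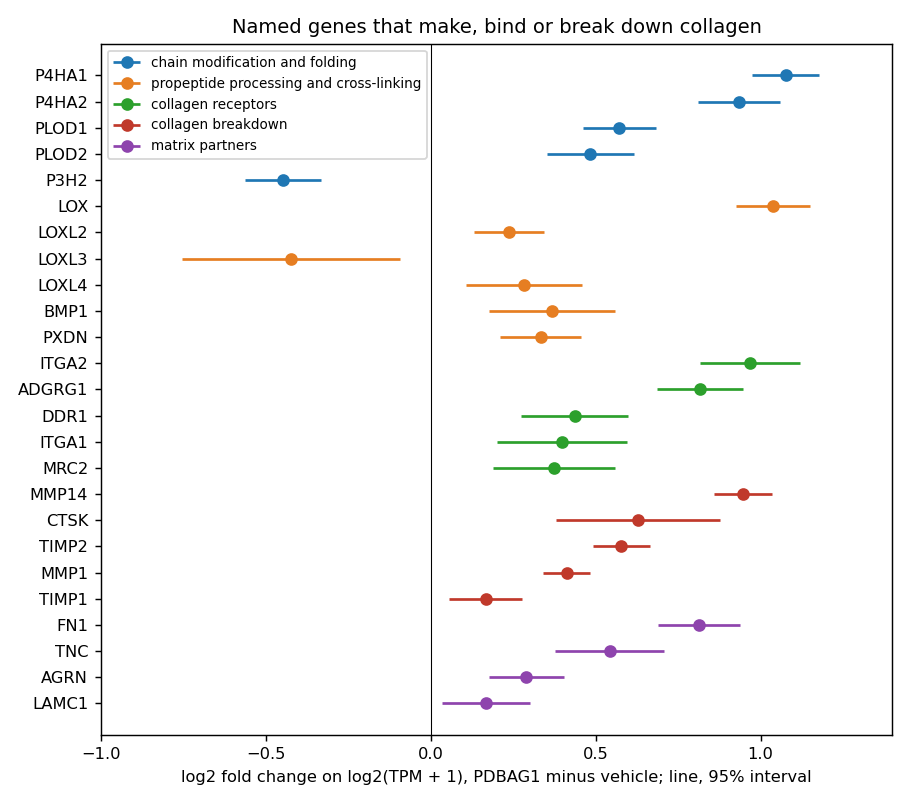
Log2 fold change on the log2(TPM + 1) scale, PDBAG1 minus vehicle, with 95% interval, of the 25 named genes that make, bind or break down collagen, coloured by list; all passed a limma adjusted p of 0.05. P4HA1 at 1.08 and LOX at 1.04 are highest, and P3H2 and LOXL3 are below 0.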

How the data were processed

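The values deposited by the authors are TPM, 1 table per library, rounded to 2 decimals, and each library sums to nearly the same total. According to the methods, mRNA libraries were sequenced on the BGISEQ-500 platform, and reads were mapped with HISAT2 to GRCh38.p13, counted and normalised to FPKM. The submitters' processing notes name HISAT2 2.0.4, Bowtie2 2.2.5, RSEM 1.2.12 and GRCh38.p12. The annotation release, the step to TPM and strandedness are not given in the sources used here.

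Genes with at least 1 TPM in 3 or more libraries were fitted with limma 3.58.1 in R 4.3.3 on log2(TPM + 1), with a trend of variance. A fold change on this scale understates the change of low genes. Intervals are 95% intervals of the fitted difference. Calls needed a Benjamini-Hochberg adjusted p under 0.05, and separately a 1.5-fold change. The fit was tested on simulated data. Each tested collagen is named, and of each other list up to 5 genes by size of change among those past the threshold, plus LOXL2. SERPINH1 and the low proteoglycans were named after their values were seen. The members and lists were chosen with earlier results of these data known. Alternatives were filters, a pseudocount of 0.1, scalings, the replicate block, trend removal, fold limits and left-out libraries. Positions are those of GENCODE v44 (GRCh38), matched by Ensembl identifier.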

Additional observations from a re-analysis of the deposited data

How the results depend on the processing

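Of 218 values of single collagens under other settings, 190 kept direction and call, 9 lost the call, 1 gained it and 18 turned direction, the last all in genes without a call. Removing length and GC trends moved the called collagens from 8 to 5, with 4 in place of 7 higher, and the class medians to 0.12 (fibrillar), -0.029 (basement membrane, turned) and 0.062 (other). The cause was not tested. Without a filter, where members near 0 enter by construction, the fibrillar and other medians were 0.037 and 0.024, the other median was 0.084 with 1 TPM required in every library, and the fibrillar median was 0.19 under quantile normalization. The count at 1.5-fold, 1 as reported, was 2 with a pseudocount of 0.1 (COL6A3 joined), 0 at a fold limit of 2 and 8 with no limit.

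Directions that turned were COL4A1 (-0.0069), COL4A2 (-0.051), COL9A2 (-0.078), COL12A1 (-0.049), COL16A1 (-0.11) and COL18A1 (-0.12) with trends removed. They were COL9A2 (-0.059), COL12A1 (-0.065) and COL16A1 (-0.050) under quantile normalization, and COL9A2 (-0.012) and COL12A1 (-0.023) under median-of-ratios scaling. With 1 library left out COL9A2 ranged from -0.00027 to 0.074, COL12A1 from -0.061 to 0.098 and COL16A1 from -0.10 to 0.14. Over these 6 fits 7 to 8 collagens were called (6 to 7 higher), and the class medians ranged from 0.25 to 0.31 (fibrillar), 0.05 to 0.14 (basement membrane) and 0.14 to 0.20 (other).

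Under a replicate block (the number as a term) COL6A2 lost its call, which left 7 called collagens, and no other collagen call changed. Same-numbered libraries share only a number, and their deviations had correlations of -0.21, 0.01 and -0.08. Leaving libraries out was added for the chain ratios after seeing the data, and the difference in COL6A1 to COL6A2 stayed between 0.359 and 0.431, that in COL4A1 to COL4A2 between -0.0204 and 0.0118. DESeq2 and edgeR were not run, since TPM keeps no depth.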
